A study of Homo sapiens with 16 samples.

Results

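Intergenic regions are the m6A-enriched regions of the merged peak list that touched the span of no annotated gene, whatever its type. Of the 36970 merged regions, 36349 lay on chromosomes 1 to 22 and X, and 3881 of these (10.7%) overlapped no GENCODE gene (release 44, hg38). The remaining regions served as comparison. Of these, 24853 overlapped an exon (exonic regions) and 7615 overlapped a gene without touching an exon (intronic regions). The study compared 2 human prostate cancer cell lines by methyl-RNA immunoprecipitation and sequencing (MeRIP-seq), in which RNA fragments are pulled down with an antibody against m6A (IP) and sequenced next to the unenriched RNA (input). C4-2B cells are sensitive to enzalutamide, a drug used against prostate cancer. MDV-R cells are resistant descendants of C4-2B, selected by long culture under the drug, and are kept in 5 µM enzalutamide. Total RNA of both lines was collected on day 3, in 4 replicates per line, each with an IP and an input library, giving 8 peak lists. The line and the drug kept in its medium cannot be told apart, and MDV-R is a single derived line. The labels do not say whether replicates were separate cultures, so p-values measure the spread between these samples, which may be technical.

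The depths recovered from the peak statistics were 0.864 to 1.206 M IP tags per library, a tag being a uniquely mapped read without its duplicates. Input depths were 0.901 to 1.229 M tags in C4-2B and 1.599 to 2.967 M in MDV-R, so every MDV-R input was deeper than every C4-2B input. The first C4-2B list stood apart with the fewest called regions of all classes, 10922 against 19289 to 25400 in the other lists. Titles of MDV-R samples name a different line as well, and the grouping here rests on the cell line field. Of 10 prostate luminal markers, 8 had an exonic peak in all 4 MDV-R lists and 5 in all 4 C4-2B lists, among them KLK2, HOXB13 and STEAP2 in all 8. KRT8 and KRT18 had none in any list. Of 7 markers of other cells, which included the bladder genes UPK1A, UPK2 and UPK3A, 5 had none in any list, UPK3A had one in 2 MDV-R lists, and COL1A1 had one in 1 C4-2B and 2 MDV-R lists.

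m6A is the commonest internal modification of messenger RNA. It is written by a methyltransferase complex whose catalytic subunit is METTL3, and it is placed mostly within the consensus DRACH, of which GGAC forms the typical core. RNA from outside annotated genes arises in several ways. Transcription runs on past gene ends, promoters fire in both directions, unannotated noncoding RNAs are made, and transposable elements such as LINE-1 are transcribed. LINE-1 RNA and chromatin-associated regulatory RNAs are known carriers of m6A. Total RNA, the starting material here, holds nuclear and unpolyadenylated RNA as well as messenger RNA.

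The sequences below show summits of regions called in 1 line alone, of the largest rise in MDV-R and of the most remote region among those called in all 8 lists. The 4 windows reach 50 nt to each side of the strongest summit of regions described later, on the plus strand of hg38. Capitals mark GGAC or its complement GTCC, since the peak lists carry no strand. All 4 windows hold it, which is not the rule, since 55.5% to 60.5% of intergenic summits per list did. They lie at chr13:70255388-70255488 (83133 nt downstream of ATXN8OS, called in C4-2B alone), chr17:22375400-22375500 (30175 nt upstream of FLJ36000, called in MDV-R alone), chr20:62594925-62595025 (downstream of LINC02970) and chr22:12166804-12166904 (downstream of ENSG00000290397).
ATXN8OS: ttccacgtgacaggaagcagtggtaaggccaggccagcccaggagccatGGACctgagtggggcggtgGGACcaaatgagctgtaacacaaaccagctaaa
FLJ36000: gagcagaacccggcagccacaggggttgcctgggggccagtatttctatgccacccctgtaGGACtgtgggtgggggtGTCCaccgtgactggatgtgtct
LINC02970: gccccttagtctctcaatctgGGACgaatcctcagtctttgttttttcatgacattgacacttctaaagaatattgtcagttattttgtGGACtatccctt
ENSG00000290397: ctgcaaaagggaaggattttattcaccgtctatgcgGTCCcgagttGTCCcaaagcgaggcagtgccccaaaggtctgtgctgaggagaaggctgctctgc

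Intergenic regions were denser beside genes than in the rest of the gene-free genome. The median distance to the nearest gene on either side was 6022 nt (quartiles 1576 and 23752 nt), and 720 regions (18.6%) lay under 1 kb from a gene. To the nearest gene end, with the region on its downstream side, the median was 15289 nt (quartiles 4750 and 50334 nt). To the nearest gene start, with the region on its upstream side, it was 17667 nt (quartiles 3833 and 57576 nt). At short range more regions lay before a start than behind an end, with 471 regions (12.1%) under 1 kb upstream of a start and 298 (7.68%) under 1 kb downstream of an end. Within 5 kb the counts were 1128 (29.1%) and 1005 (25.9%), of which 376 regions met both conditions. The other 2124 regions (54.7%) were near neither.

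Gene-free sequence made up 1143 Mb, or 39.3% of the sequence of these chromosomes, and 11.5% of it lay within 5 kb downstream of an end and 10.8% within 5 kb upstream of a start. The density was 9.11 regions per gene-free Mb upstream of starts, 7.68 downstream of ends and 2.31 in the rest, against 3.4 in all. These densities describe the merged list, and regions were not taken as replicates, so they carry no test. Among chromosomes the density ran from 1.92 regions per gene-free Mb on chromosome 13 to 8.65 on chromosome 22. A remote group of 520 regions lay at least 50 kb from any gene, with a median of 102940 nt, and the most remote region was 823864 nt away.

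**Figure D1:**
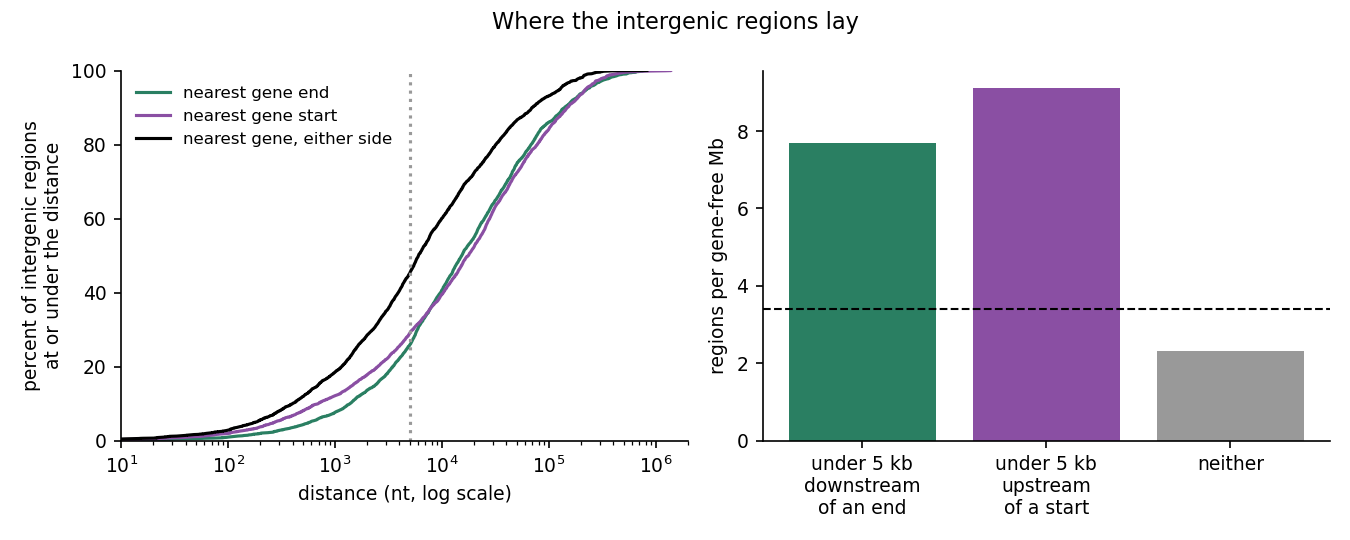
Left, the share of the 3881 intergenic regions (percent) at or under each distance (nt, log scale) from the nearest gene end, the nearest gene start and the nearest gene on either side, with a dotted line at 5 kb. Right, bars give regions per gene-free Mb, 7.68 downstream of ends, 9.11 upstream of starts and 2.31 near neither, and the dashed line marks 3.4 for all gene-free sequence.

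The nearest gene was protein-coding for 1469 regions (37.9%), a long noncoding RNA (lncRNA) for 1230 (31.7%), a pseudogene for 893 (23%) and of another type for 289 (7.45%). Among all 62062 genes these types made up 32.2%, 30.2%, 23.9% and 13.7%. Of the 1005 regions just downstream of an end, 471 followed a protein-coding gene, and in 78.1% of these that gene held an exonic region itself. Of the 1128 just upstream of a start, 642 preceded a protein-coding gene, and in 79.1% that gene held an exonic region. Among all 19970 protein-coding genes the share was 54.1%. A second annotation bears on the label itself, since 998 intergenic regions (25.7%) overlapped a gene span of RefSeq (GRCh38.p14), in 691 cases a lncRNA and in 270 a protein-coding gene. These regions are intergenic by GENCODE alone.

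The width of intergenic regions in the merged list ran from 265 to 6663 nt, with a median of 453 nt (quartiles 311 and 665 nt), against medians of 454 nt for intronic and 597 nt for exonic regions. Median GC content was 44.7% in intergenic, 41.5% in intronic and 53.1% in exonic regions. GC was higher beside genes, with a median of 50.6% in regions under 5 kb upstream of a start and 48.9% downstream of an end, and 39.4% in regions at least 50 kb from any gene.

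The number of intergenic regions called, meaning overlapped by a peak by at least 1 bp, was 663, 1747, 1648 and 1732 in the C4-2B lists, in replicate order. In the MDV-R lists it was 1416, 1795, 1907 and 1859. The first C4-2B list was far below all others and the remaining lists of both lines overlapped. The means were 1448 ± 525 and 1744 ± 224 regions (SD, n = 4 each), a difference of 297 (exact two-sided permutation test, p = 0.429). Without the first C4-2B list the difference was 35.2 regions (exact permutation p = 0.886).

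Expressed as a share of all regions called in a list, intergenic regions made up 6.07%, 8.38%, 8.47% and 8.98% in C4-2B and 6.99%, 7.68%, 9.01% and 7.32% in MDV-R. The means were 7.97 ± 1.30% and 7.75 ± 0.886% (SD, n = 4 each, exact permutation p = 0.800). The share of called intergenic regions that lay under 5 kb downstream of a gene end was 29.6 ± 0.361% for C4-2B and, for MDV-R, 29.1 ± 1.00% (exact permutation p = 0.40). Counted within 1 kb of the end, the share was 0.632 percentage points lower in MDV-R (exact permutation p = 0.0286), which is the smallest p that 4 against 4 lists allow. None of the 6 comparisons between the lines passed after Benjamini-Hochberg adjustment (adjusted p = 0.914 for each of the 6 exact permutation tests).

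**Figure D2:**
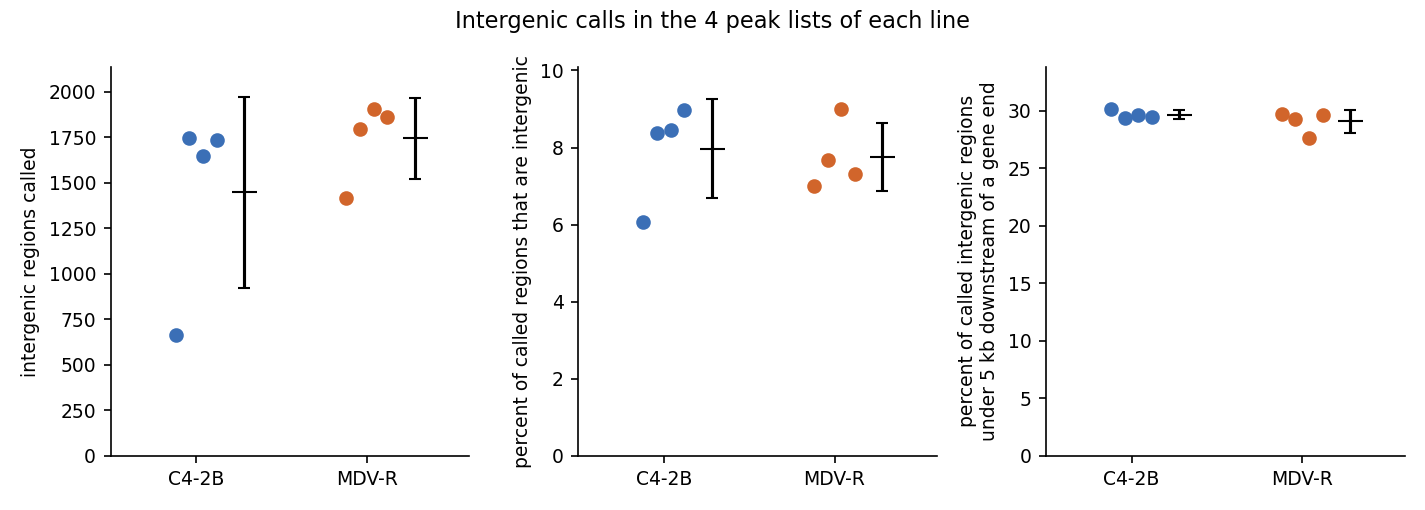
Each point is 1 peak list of C4-2B (blue) or MDV-R (orange), with the mean and SD of the 4 lists in black. The panels give the number of intergenic regions called, their percent among all called regions, and the percent of called intergenic regions under 5 kb downstream of a gene end. The first C4-2B list, with 663 regions, is the lowest point of the left panel, and the lines overlap in every panel.

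Agreement between lists was lower than over the whole merged list. Of the 3881 regions, 376 (9.69%) were called in all 8 lists, where 25.2% of all merged regions were. The shares among exonic and intronic regions were 32.6% and 9.14%. A single list called 1109 intergenic regions (28.6%) and 114 were called in none. Both lines called 1519 regions, C4-2B lists alone called 1004 and MDV-R lists alone 1244. Regions called in all 8 lists were wider, with a median of 952 nt against 295 nt in those called in 1 list, and lay closer to genes (medians 3358 and 7167 nt). Of regions at least 50 kb from any gene, 23 (4.42%) were called in all 8 lists, and of those under 5 kb downstream of an end, 134 (13.3%).

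Intergenic peaks were weaker than exonic ones and close to intronic ones. Strength was taken as the percentile of a peak's −log10 p within its list, using the strongest peak over each region. The median percentile of intergenic regions was 31.3 to 33.0 in the 8 lists, that of intronic regions 27.6 to 33.1 and that of exonic regions 58.5 to 62.7. Intergenic and exonic values did not overlap. The intergenic median was 29.2 ± 0.975 percentile points under the exonic one (SD over 8 lists), lower in 8 of 8 lists (exact two-sided sign-flip permutation test, p = 0.00781, adjusted p = 0.0130 over the 5 class comparisons). Against intronic regions the difference was 0.797 ± 1.78 points (exact sign-flip permutation p = 0.250), and intergenic regions were higher in 3 of 8 lists, all of them of MDV-R. For regions at least 5 kb from any gene this difference was -2.72 points (exact sign-flip permutation p = 0.0312), so its direction depended on the regions beside genes.

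In IP tags at the summit, scaled to the depth of each IP library (CPM), the same order appeared, with medians of 12.7 to 16.6 CPM over intergenic regions, 12.7 to 17.4 over intronic and 33.5 to 44 over exonic regions. In whole tags the intergenic medians were 12 to 20 per list, which limits the precision of any single region. The local background is the signal expected at the summit without enrichment, given here as a multiple of the lowest background in the list. It had medians of 1.57 to 2.93 over intergenic and 5.94 to 13.3 over exonic regions. Fold enrichment is the deposited ratio of IP to local background with a constant added to both, which weighs most where the background is low. It differed less, with medians of 7.63 to 8.17 over intergenic and 7.22 to 10.2 over exonic regions. Ranked by fold enrichment, intergenic regions differed by -6.82 percentile points from exonic ones (exact sign-flip permutation p = 0.0781) and by 1.96 points from intronic ones (exact sign-flip permutation p = 0.0312). The gap to exonic regions was thus smaller in the ratio than in −log10 p. The part of the added constant in this was not tested.

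Peaks over intergenic regions had median widths of 378 to 445 nt in the 8 lists and peaks over exonic regions 536 to 611 nt. The difference was -156 ± 7.87 nt (SD over 8 lists), with intergenic peaks narrower in 8 of 8 lists (exact sign-flip permutation p = 0.00781, adjusted p = 0.0130 over 5). From intronic peaks they differed by -0.125 ± 8.18 nt (exact sign-flip permutation p = 1), or by -11.7 nt where only regions at least 5 kb from any gene were taken (exact sign-flip permutation p = 0.0156). Between the lines, C4-2B lists had a median width of 419 ± 14.2 nt and MDV-R lists one of 413 ± 33.4 nt (SD, n = 4 each, exact permutation p = 0.800). The median strength percentile was 31.9 ± 0.597 for C4-2B and 31.9 ± 0.849 for MDV-R (exact permutation p = 0.886). With lists cut to equal size, MDV-R lay 13.0 percentile points above C4-2B (exact permutation p = 0.0571) and its peaks were 145 nt wider (exact permutation p = 0.0857). The percentiles were those of the uncut lists, so cutting a longer list to its strongest peaks raises its median by itself. The 13.0 points thus cannot tell strength from list length. The widths too rest on the strongest peaks of the longer lists.

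**Figure D3:**
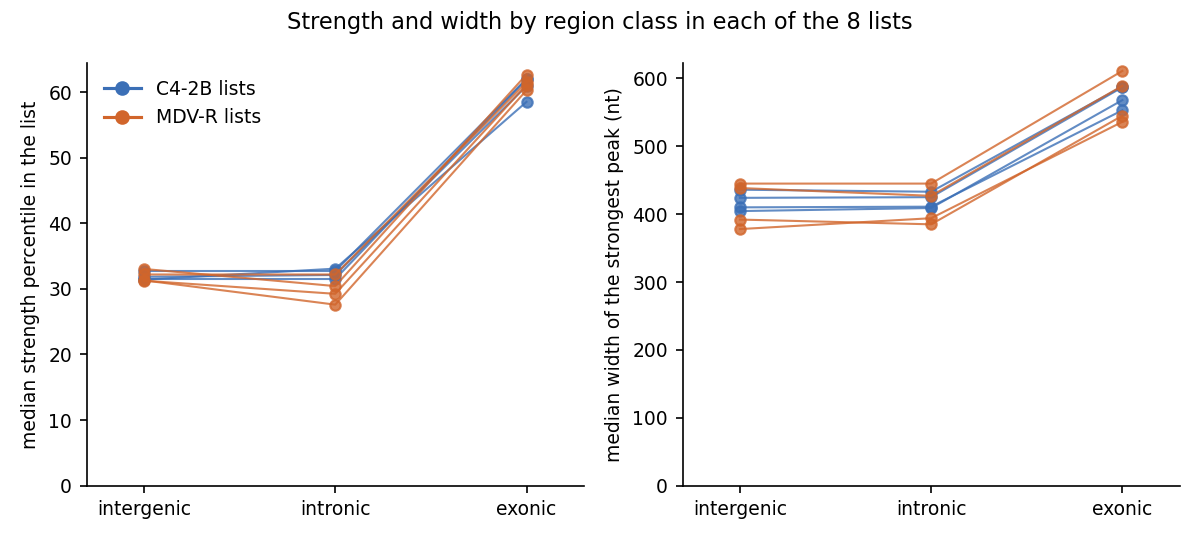
Median strength percentile (left) and median width of the strongest peak in nt (right) of intergenic, intronic and exonic regions, with 1 line per peak list, blue for C4-2B and orange for MDV-R. In all 8 lists intergenic regions lie at 31.3 to 33.0 and exonic regions at 58.5 to 62.7, and intergenic and intronic regions lie close together in both panels.

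The m6A core was commoner at intergenic summits than beside them. The motif searched was GGAC on either strand (GGAC or GTCC) within 50 nt on either side of the strongest summit. It was found at 55.5% to 60.5% of intergenic summits per list and in 39.9% to 43.3% of windows of equal length shifted by 300 nt to either side. The difference was 16.4 ± 2.22 percentage points (SD over 8 lists), positive in 8 of 8 lists (exact sign-flip permutation p = 0.00781, adjusted p = 0.0130 over 5). It was 8.89 points with GGAC within 25 nt, and 1.00 with DRACH in place of GGAC (exact sign-flip permutation p = 0.00781 each). DRACH is a looser pattern that most windows of this length hold on 1 strand or the other. Its difference therefore had little room and cannot be set against that of GGAC. GC content was 45.5% to 47.0% at the summits and 46.3% to 47.4% in the flanks. Of all gene-free windows of this length, 32.9% held GGAC on either strand. Intronic summits held it in 51.3% to 57.8% and their flanks in 35.7% to 38.6%. Exonic summits held it in 60.7% to 63.2% and their flanks in 47.3% to 48.8%. An excess at summits was thus not particular to intergenic regions. The share at intergenic summits was 57.8 ± 2.09% for C4-2B and, for MDV-R, 57.7 ± 1.07% (SD, n = 4 each, exact permutation p = 0.914). A match is a string of letters on an unknown strand, not a measured methylation site.

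Stretches of 20 nt shared by many intergenic regions were looked for on either strand. They were chosen after their counts were seen, so they are described without a test. The 3 stretches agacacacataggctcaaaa, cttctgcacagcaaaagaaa and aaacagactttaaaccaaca were held by 198 (5.10%), 189 (4.87%) and 185 (4.77%) intergenic regions. Of gene-free windows of 453 nt, the median width of the regions, 0.130%, 0.364% and 0.152% held them. As background, their letters are known from LINE-1, a retrotransposon with very many copies in the human genome. No repeat annotation was used here, and reads from copies that differ little cannot always be assigned to 1 of them. Exonic regions held them in 0.0443%, 0.133% and 0.0443%, and intronic regions in 4.91%, 6.75% and 5.34%. Of the regions with each stretch, 7 (3.54%), 35 (18.5%) and 6 (3.24%) were called in all 8 lists.

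Among the 376 regions called in all 8 lists, the strongest lay beside 2 pseudogenes on chromosome 9, AMD1, ENSG00000289151 and ATP8B1, when 1 region per nearest gene was taken. The top region, at chr9:67724635-67725586, lay 103 nt downstream of FAM27B, annotated as a pseudogene in GENCODE, and overlapped the RefSeq span of that gene. Its strongest overlapping peaks had 119, 140, 156 and 157 IP CPM in C4-2B and 198, 225, 203 and 204 in MDV-R. However, the summit lay inside the region in 0 of the 8 lists, and that of the strongest peak, at 67726031, was past its end. All values given for this region therefore belong to positions outside it. The lines did not overlap, and the MDV-R values were higher by 0.54 ± 0.12 on the log2 scale (SE, limma, adjusted p = 9.76e-05). The fold enrichment differed by 0.0029 ± 0.355 on the log2 scale (SE, limma, adjusted p = 0.996).

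The next region, chr9:66264851-66270591, was 5741 nt wide, lay 10386 nt upstream of the pseudogene CDRT15P12, and had a GC content of 62%. It had 123, 154, 163 and 164 IP CPM in C4-2B and 153, 153, 143 and 147 in MDV-R, with overlapping groups (log2 difference -0.0079 ± 0.127 (SE), limma adjusted p = 0.971). The widest intergenic region of all, chr6:110904181-110910843 with 6663 nt, began 5301 nt downstream of AMD1, which encodes the S-adenosylmethionine decarboxylase of polyamine synthesis. Its IP CPM were 147, 162, 181 and 200 in C4-2B and 115, 148, 120 and 124 in MDV-R. All but 1 of the MDV-R values were under all C4-2B values (log2 difference -0.44 ± 0.13 (SE), limma adjusted p = 0.00248). Its local background was lower too (log2 difference -1.53, limma adjusted p = 0.00933), and its fold enrichment did not pass (log2 difference 0.89, limma adjusted p = 0.114).

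The region at chr16:88566423-88567874 lay 1663 nt downstream of the lncRNA ENSG00000289151 and 2528 nt upstream of ZC3H18, a zinc finger protein that links capped RNA to the nuclear exosome. It had 87.9, 110, 120 and 119 IP CPM in C4-2B and 75.5, 97.7, 86.7 and 84.8 in MDV-R (log2 difference -0.34 ± 0.14 (SE), limma adjusted p = 0.0424). Its fold enrichment was 19.0, 26.1, 16.2 and 18.2 in C4-2B and 33.0, 56.9, 30.7 and 44.3 in MDV-R, higher without overlap but short of the threshold (log2 difference 1.03, limma adjusted p = 0.0668). Its local background was lower in MDV-R (log2 difference -2.09, limma adjusted p = 0.00491). The region at chr18:57803325-57805107 began 9 nt upstream of the start of ATP8B1, which encodes a phospholipid flippase. It had 89.5, 114, 118 and 134 IP CPM in C4-2B and 97.7, 96.7, 97.4 and 106 in MDV-R, with overlapping groups (limma adjusted p = 0.305). In fold enrichment none of these 5 regions passed (limma adjusted p = 0.0668 to 0.996).

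Of the regions called in all 8 lists, 3 were the most remote from GENCODE genes. The first, chr22:12166606-12167450, lay 256247 nt downstream of the lncRNA ENSG00000290397 but overlapped the RefSeq gene LOC105379516, with a GC content of 60.8% and 40.6, 74.3, 67.5 and 75.3 IP CPM in C4-2B against 53.3, 35.1, 58.4 and 60.2 in MDV-R. Its groups overlapped (limma adjusted p = 0.127), and its window, printed above, holds GTCC at 2 places. The second, chr6:94947478-94947997, lay 211539 nt upstream of the lncRNA ENSG00000289178. It had 13.9 to 17.4 IP CPM in C4-2B and 14.5 to 19.5 in MDV-R, again with overlap (limma adjusted p = 0.703). The third, on chromosome 8 at 114580554 to 114581771, lay 209881 nt downstream of the pseudogene CARS1P2. It had 17.4, 26.7, 18.2 and 29.0 IP CPM in C4-2B and 44.4, 45.7, 61.3 and 53.5 in MDV-R, all higher than in C4-2B (log2 difference 1.19 ± 0.19 (SE), limma adjusted p = 1.05e-08). Its fold enrichment was higher by 1.00 ± 0.355 (SE) on the log2 scale and did not pass (limma adjusted p = 0.0741).

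Regions called in all 4 lists of 1 line and none of the other were more often of MDV-R in the lists as deposited. The counts were 76 intergenic regions for C4-2B (1.96%) and 208 for MDV-R (5.36%), while over all merged regions the shares were 1.18% and 3.59%. Both intergenic shares were above the shares of exonic regions (0.893% and 3.13%) and of intronic regions (1.72% and 4.16%). These are counts with no test. Without the first C4-2B list the C4-2B count was 210, close to the MDV-R count, which was 209 without it. With all lists cut to equal size the order turned, with 81 regions for C4-2B and 54 for MDV-R. Both groups lay farther from genes than intergenic regions in all, with medians of 9226 nt for C4-2B and 10500 nt for MDV-R. Their median GC content was 40.3% and 44.8%.

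The strongest region of C4-2B alone was chr13:70254872-70256030, 83133 nt downstream of ATXN8OS, an antisense RNA at a repeat expansion locus. It had 69.6, 74.3, 81.5 and 91.5 IP CPM, from 75 to 84 tags, and a mean strength percentile of 95.6 ± 3.00 (SD, n = 4). The next 4 of C4-2B alone had mean percentiles of 79.3 to 82.2. They lay 7609 nt downstream of the olfactory receptor pseudogene OR7E47P on chromosome 12, 29906 nt downstream of the lncRNA ENSG00000261555 on chromosome 16, 254524 nt upstream of the pseudogene ENSG00000267716 on chromosome 18, and 4733 nt upstream of RPL9P15, a ribosomal protein L9 pseudogene on chromosome 3. Near RPL9P15 the IP CPM were 47.2, 58.5, 61.1 and 62.5. The first of these 4 overlaps the RefSeq span of SMIM41-AS1.

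The strongest region of MDV-R alone was chr5:28082963-28084472, 128886 nt downstream of the pseudogene ENSG00000250079. It had 74.4, 76.5, 83.7 and 82.5 IP CPM and a mean percentile of 94.5 ± 2.17 (SD, n = 4). The next, chr17:22374104-22375843, lay 30175 nt upstream of the lncRNA FLJ36000 and had 59.9, 69.1, 69.1 and 59.1 IP CPM. The other 3 lay 2853 nt upstream of the pseudogene ENSG00000231331 on chromosome 2, 545 nt upstream of RAD23BP3, a RAD23B pseudogene on chromosome 21, and 9443 nt downstream of the lncRNA ENSG00000259166 on chromosome 14. Their mean percentiles were 81.3 to 86.3. A region not called in a list has no value there, so no fold between the lines can be given for these 10 regions.

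Fold enrichment was then compared at the regions called in all 8 lists, of which 376 of 9172 were intergenic. This filter keeps regions with signal in every list, so regions absent from 1 line cannot enter. With limma on log2 fold enrichment, 6 intergenic regions (1.6%) were higher in MDV-R and 4 (1.06%) lower at an adjusted p under 0.05, while over all regions tested 3.01% were higher and 0.218% lower. The median difference over all regions was 0.44 on the log2 scale and over intergenic regions 0.18. With each list centred on its own median, the median over all regions was 0.04 and over intergenic regions -0.22. Then 3 intergenic regions (0.798%) were higher and 27 (7.18%) lower, while of all 9172 regions 82 were higher and 165 lower. The local background was lower in MDV-R by a median of 0.48 on the log2 scale over all regions (median difference -0.48), and input depth differed between the lines. The part of input depth in these counts was not tested. Without the third MDV-R list, 34 intergenic regions (9.04%) were higher and 21 (5.59%) lower, while over all 9172 regions 2027 were higher and 71 lower. Without the first MDV-R list the intergenic counts were 1 (LINC02970) and 0, with 54 intergenic regions at an unadjusted p under 0.05. The counts over all regions were then 31 and 3. Intergenic counts were 2 and 2 without the second MDV-R list, 1 and 1 without the fourth, and 2 and 7 without the first C4-2B list. Over all regions they were 19 and 6, 22 and 4, and 74 and 28. Leaving out C4-2B replicate 2, 3 or 4 gave 3 and 3, 4 and 1, or 3 and 1 intergenic regions. Over all regions this gave 160 and 10, 144 and 8, or 61 and 5.

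In IP CPM, which leaves the input out, 79 intergenic regions (21%) were higher in MDV-R and 89 (23.7%) lower (limma, adjusted p under 0.05), while over all 9169 regions with tags recovered 20.7% were higher and 14.8% lower. In these bulk samples, more methylation of a transcript, more copies of it per cell and more cells that make it cannot be told apart in IP tags. Counts over regions at least 5 kb from any gene were 25 higher and 34 lower of 142.

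The largest rise in fold enrichment was beside the lncRNA LINC02970, 520 nt past its GENCODE end and overlapping its RefSeq span (chr20:62594204-62596211). Its IP CPM were 8.29, 11.9, 11.8 and 9.26 in C4-2B and 71.0, 77.6, 81.8 and 55.8 in MDV-R. All MDV-R values were higher than all C4-2B values. Its fold enrichment was 6.51, 9.73, 9.15 and 6.99 in C4-2B and 32.3, 44.9, 47.3 and 29.9 in MDV-R, a log2 difference of 2.25 ± 0.36 (SE, limma, adjusted p = 9.07e-07). It passed in all 12 alternative fits of fold enrichment, and with centred lists the difference was 1.84 (limma, adjusted p = 0.00198). Its local background was higher in MDV-R too, with means of 1.00 times the lowest background in C4-2B and 2.53 times in MDV-R. The log2 difference was 1.32 (limma adjusted p = 0.0173), taken against C4-2B values that all lay at that lowest background.

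The next rise was at chr17:21274427-21275908, 54 nt upstream of the start of the lncRNA ENSG00000289453. Fold enrichment was 7.70, 6.05, 7.74 and 10.6 in C4-2B and 22.7, 18.4, 21.4 and 27.4 in MDV-R, with no overlap (log2 difference 1.5 ± 0.36 (SE), limma adjusted p = 0.00771, and 0.0334 with centred lists). At chr11:39006170-39007237, 17393 nt downstream of the lncRNA ENSG00000285751, it was 4.22, 5.99, 6.86 and 6.99 in C4-2B, from 6 to 8 tags, and 14.3, 12.7, 13.3 and 21.1 in MDV-R. The log2 difference was 1.35 ± 0.36 (SE, limma, adjusted p = 0.0217). The regions near LINC01893 on chromosome 18 and ENSG00000289481 on chromosome 22 were higher by 1.22 and 1.18 (limma adjusted p = 0.0331 and 0.0393) but did not pass with centred lists (limma adjusted p = 0.157 and 0.111). Near LINC01893 the fold values of the lines overlapped, with 8.36 to 35.6 in C4-2B and 28.6 to 53.5 in MDV-R.

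The 4 falls were near 3 pseudogenes and CRISPLD1, all over 30 kb from the gene. At chrX:64013449-64014200, 30104 nt upstream of HNRNPDP1, fold enrichment was 19.1, 24.2, 26.7 and 32.4 in C4-2B and 6.92, 8.88, 6.11 and 13.9 in MDV-R. The lines did not overlap (log2 difference -1.57 ± 0.36 (SE), limma adjusted p = 0.00466), and neither did IP CPM, with 35.6, 46.6, 45.0 and 61.4 in C4-2B against 8.88, 12.7, 8.76 and 19.0 in MDV-R. At chr3:154738934-154741005, 61814 nt upstream of RPL9P15, IP CPM were 39, 52.5, 61.1 and 61.4 in C4-2B and 5.55, 7.44, 7.79 and 6.69 in MDV-R. Fold enrichment there differed by -1.53 ± 0.36 on the log2 scale (SE, limma, adjusted p = 0.00724), and the local background also fell (log2 difference -2.56, limma adjusted p = 0.000912). The strong C4-2B region 4733 nt upstream of RPL9P15, described above, lies in the same gap between genes.

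At chr5:62822645-62823184, 45381 nt upstream of ISCA1P1, fold enrichment was 19.2, 13.5, 17.5 and 17.9 in C4-2B and 7.69, 6.09, 6.70 and 6.93 in MDV-R, from 7 to 9 tags. The log2 difference was -1.30 ± 0.36 (SE, limma, adjusted p = 0.0276). Near CRISPLD1 on chromosome 8 it was 12.8 to 24.5 in C4-2B and 6.07 to 9.82 in MDV-R (log2 difference -1.25 ± 0.36 (SE), limma adjusted p = 0.0326). All 4 falls passed with centred lists (limma adjusted p = 0.000230 to 0.00786). Without the first MDV-R list, all 9 of these named rises and falls but that near LINC02970 missed the threshold, with limma adjusted p from 0.0578 near ENSG00000289453 to 0.113 near LINC01893.

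Neighbouring intergenic regions often formed chains. With gaps under 10 kb and no gene between, 2144 regions (55.2%) fell into 762 chains of 2 or more regions, 69 of which had 5 or more, and 1737 stood alone. The longest chain ran over chr17:22370196-22405458 (35.3 kb), in 18 regions that ended 560 nt before the start of FLJ36000, and overlapped the RefSeq genes LOC105377824 and LOC107987246. Its regions were called 1, 2, 3 and 4 times in the C4-2B lists and 17, 17, 15 and 17 times in the MDV-R lists. Of the 18, 11 were called in all 4 MDV-R lists and no C4-2B list, which is 11 of the 208 such intergenic regions, and 1 was called in all 8.

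The second chain, chr6:168387074-168417373, held 9 regions upstream of SMOC2, which encodes a secreted matrix protein, at 23777 nt from its start. It had 1, 2, 2 and 1 regions called in C4-2B and 5, 6, 6 and 6 in MDV-R. The third, chr11:50364550-50383800, held 9 regions 2843 nt downstream of the lncRNA ENSG00000290412, with none called in any C4-2B list and 4, 6, 4 and 4 in MDV-R. In all 3 chains every MDV-R list held more called regions than every C4-2B list. The chains were chosen for length, but a chain grows with the regions called in either line. Of their regions, 14 of 18, 7 of 9 and 9 of 9 were called in MDV-R lists alone, and 0 in C4-2B lists alone. The lack of overlap is thus partly built into the choice, and the calls are a description. Calls by line in the other chains are not given here. Over all intergenic regions, MDV-R lists alone called 1244 and C4-2B lists alone 1004. Regions of a chain may come from 1 transcript and are not independent of each other.

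**Figure D4:**
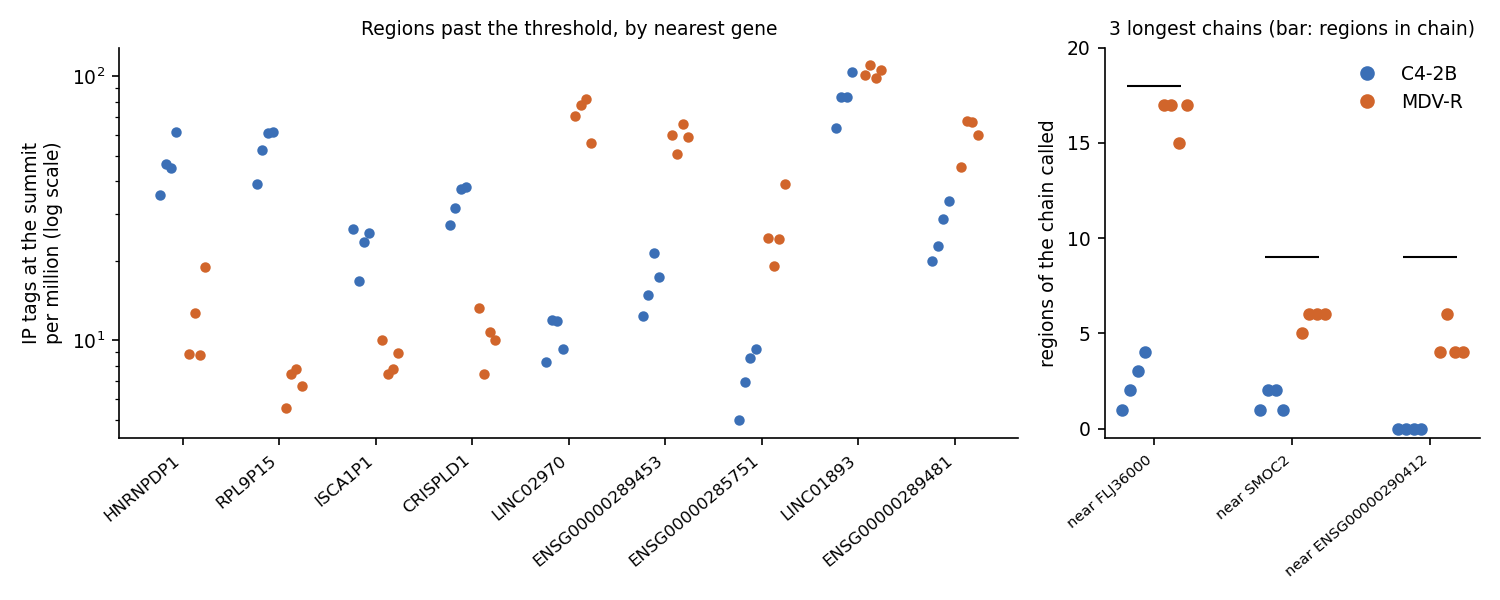
Left, IP CPM at the summit (log scale) in each C4-2B (blue) and MDV-R (orange) list for 9 of the 10 intergenic regions past the threshold in fold enrichment, named by their nearest gene, with the 4 lower and 5 of the 6 higher in MDV-R. Right, how many regions of the 3 longest chains each list called, with a bar at the number of regions in the chain. Near FLJ36000 the MDV-R lists called 15 to 17 of 18 regions and the C4-2B lists 1 to 4.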

How the data were processed

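MeRIP-seq libraries of C4-2B and MDV-R cells, 8 IP and 8 input, were made by the authors from DNase-treated total RNA in fragments of about 100 nt. Per the study's methods and processing notes, reads were aligned to hg38 with STAR 2.7.0 (GENCODE 39), uniquely mapped and deduplicated reads were kept with SAMtools 1.10, and peaks were called for each replicate against its input with MACS2 3.0.0a6 (no model, extension 100 nt, genome size 300 Mb). The deposited peak lists give, per peak, positions and a summit offset, a score, −log10 p-values and q-values, and a fold enrichment. This enrichment is the ratio of IP to local background, with a constant added to both. The deposited merged list gives positions, and how it was merged is not given in the sources used here. Duplicate removal and the uniquely mapped filter lower the signal of repeated sequence.

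Regions on chromosomes 1 to 22 and X were compared with GENCODE 44 gene spans, and distances were measured from region edges to gene ends and starts. A region was called in a list when a peak overlapped it by at least 1 bp, and the strongest peak by −log10 p gave its values. Whole IP tags and the expected background were recovered from fold enrichment and −log10 p with a tolerance of 0.0100%, and 99.99% or more of the peaks of each list were solved. Genes named in RefSeq are from GRCh38.p14. Lines were compared by exact permutation tests over the 8 lists (70 arrangements), classes by exact sign-flip tests (256 patterns), and log2 fold enrichment by limma 3.58.1 with trend in R 4.3.3, at a threshold of 0.05 after Benjamini-Hochberg adjustment over all regions called in all 8 lists. Python 3.11.15, pandas 2.3.3, NumPy 2.4.6, SciPy 1.17.1 and pysam 0.24.0 were used, and the scripts were tested on simulated data.

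Named regions were the 5 strongest called in all 8 lists, the 5 strongest called in 1 line alone, up to 5 past the limma threshold in each direction, the 3 most remote and the 3 longest chains, with 1 region per nearest gene in the first 3 sets. The members, marker lists and rules were chosen with earlier results of these data known. Alternatives covered peak thresholds, list size, gene types, distance, windows, overlap, centring, the replicate block and leaving out each list. Some marker genes, windows and shared stretches are not reported here.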

Additional observations from a re-analysis of the deposited data

Results flagged for a closer look

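In 110 groups of 4 lists tested with Dixon's ratio, the gap of the farthest list over the range of its group, 4 exceeded its 95% critical value, and chance alone gives about 5%. The number of intergenic regions called in C4-2B had a ratio of 0.909, because the first list held 663 regions and the others 1648 to 1747. In the same line the strength of intergenic minus intronic regions had a ratio of 0.835, with the first list at -1.66 percentile points and the others between -0.27 and 0. For the region 9 nt upstream of ATP8B1, fold enrichment in C4-2B had a ratio of 0.850, with 37.6 in the third list against 13.6 to 17.2. For the same region, IP CPM in MDV-R had a ratio of 0.892, with 106 in the fourth list against 96.7 to 97.7.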

How the results depend on the processing

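The differences of intergenic from exonic regions in width, and of summits from flanks in GGAC, kept their direction and stayed past the threshold in every alternative run. The same held for strength except by fold enrichment, where it was -6.82 percentile points (exact permutation p = 0.0781). The difference of summits from flanks changed in size, to 8.89 percentage points with GGAC within 25 nt and to 1.00 with DRACH, a looser pattern that leaves little room for a difference. Against intronic regions, strength was 1.96 points by fold enrichment (exact permutation p = 0.0312) and -2.72 at least 5 kb from any gene (exact permutation p = 0.0312), where width differed by -11.7 nt. With peaks of a −log10 q of at least 5, the difference between the lines turned to -0.136 points in strength and 0.0239 percentage points in GGAC. With lists of equal size it turned to -119 regions called, 145 nt in width and 1.98 points in GGAC. There 81 regions were called in C4-2B alone and 54 in MDV-R alone. Strength differed by 13.0 points (exact permutation p = 0.0571), on percentiles of the uncut lists, which the cut itself raises in longer lists. GGAC within 25 nt differed by 2.15 points. Within 1 kb of the gene end the downstream share differed by -0.632 points (exact permutation p = 0.0286). With protein-coding genes only, 151 regions were called in C4-2B alone and 452 in MDV-R alone, and at least 5 kb from any gene 48 and 137. Apart from this effect of the cut on percentiles, the cause of these changes was not tested.

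Leaving out 1 list at a time, differences between the lines ran from 35.2 to 406 regions called, -0.859 to 0.111 points in share, -0.295 to 0.354 in strength, -15.8 to 6.54 nt in width, -0.836 to 0.811 points in GGAC and -0.824 to -0.107 in downstream share. Intergenic minus intronic width ran from -1.79 to 2.14 nt. Regions called in C4-2B alone numbered 77 to 210 and in MDV-R alone 209 to 310. The limma counts over intergenic regions ran from 1 to 34 higher and 0 to 21 lower. Over all regions tested they ran from 19 to 2027 higher and 3 to 71 lower.

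For fold enrichment, the intergenic counts were 3 higher and 27 lower with centred lists, 79 and 89 in IP CPM, and 2 and 4 at least 5 kb from any gene. Over all regions tested they were 82 and 165 with centred lists and 1897 and 1355 in IP CPM. For the local background itself the intergenic counts were 12 and 39, against 159 and 1212 over all regions. This alternative, like that of summits inside the region, was chosen after seeing the data. The background differences were 5.91e-07 near ISCA1P1 and -1.24 near LINC01893. Near ISCA1P1 both lines lay at the lowest background of the lists (1.00 each), so that difference carries no information. In 106 alternative fits of fold enrichment at the 9 regions named, 68 kept the call, 38 lost it and none turned the direction.

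Same-numbered replicates did not deviate together (r = -0.00479, 0.0243, -0.0749 and 0.0192). With the replicate block the intergenic counts were 6 higher and 7 lower, against 311 and 25 over all regions. The difference in intergenic regions called was 297 (exact permutation p = 0.125, the smallest that 4 pairs allow). Median intergenic summits held 12 to 20 tags, which limits single regions.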
